A study of Homo sapiens with 16 samples.

Results

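The comparison described here set untreated MCF10A cells overexpressing PHF8 against untreated MCF10A cells carrying the empty vector, called Mock. Of the 16 libraries of the study, 4 entered it, namely a PHF8 and a Mock library from each of 2 sequencing rounds. MCF10A is a non-tumorigenic line of human mammary epithelium that is grown with EGF, cholera toxin, insulin, hydrocortisone and horse serum, and these 4 cultures received no TGF-β1. The other 12 libraries came from the same stocks after 24, 48 or 72 h of TGF-β1 at 5 ng/ml, a cytokine that drives the epithelial-mesenchymal transition (EMT), with 2 libraries per stock and time. The labels name 1 stock of each kind and do not say whether it was a clone or a pool, so the level of PHF8 and any other difference between the stocks cannot be told apart. Genes were kept where the deposited log2 value was 3.33 or more in at least 2 of the 16 libraries, which held for 13564 of 23368 entries.

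PHF8 is a histone demethylase of the JmjC family. Its PHD finger binds histone H3 methylated at the mark of active promoters, and its catalytic domain removes methyl groups of repressive marks on histones H3 and H4, so it is known as a coactivator, among others of ribosomal RNA genes and of cell cycle genes bound by E2F. Basal mammary epithelial cells such as MCF10A hold both epithelial junctions and some mesenchymal proteins such as vimentin. Whether PHF8 alone, without TGF-β1, moves the expression of EMT genes is the question that this pair of stocks addresses.

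Values are log2 expression as deposited. Raised to the linear scale they summed to between 18.8 M and 21.2 M in each library of the whole study. Differences are PHF8 minus Mock on the log2 scale, taken within round 1 and within round 2, and their mean is tested with limma over all 13564 genes. Unless the round is named as a block, that fit has no term for it. Its SEs and p-values then include the gap between rounds and are not the spread of the within-round differences. Replicate number and sequencing round are the same thing in the labels, which do not tell if replicates were cultured apart. P-values thus reflect the spread of these libraries, which may be technical. Pearson correlations across genes were 0.9898 between the Mock libraries and 0.9847 between the PHF8 libraries of the 2 rounds. They were 0.9865 between the stocks in round 1 and 0.9948 in round 2. The libraries of a round were therefore closer to each other in round 2 than the libraries of a stock were. In the Mock stock alone, 295 genes lay at least 1 apart between the rounds, and in the PHF8 stock 582 did. The basal markers KRT5, KRT14, KRT17, TP63, CDH3 and EGFR were all tested and present in the 4 libraries, with KRT5 between 15.20 and 15.64.

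PHF8 itself was at 9.65 and 9.61 in the Mock libraries of rounds 1 and 2 and at 14.47 and 13.64 in the PHF8 libraries. The groups did not overlap, and the excess was 4.82 in round 1 and 4.02 in round 2. The mean difference was 4.42 ± 0.332 (SE, n = 2 per stock), which is 21.4-fold on the linear scale, and limma gave it an adjusted p of 0.000426. The Mock values are the transcript that MCF10A makes by itself. Counts per gene cannot tell it from the transcript of the vector.

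PHF8 was the only gene of 13564 called at an adjusted p under 0.05, which is 0.00737% of the genes tested. At an unadjusted p under 0.05, 634 genes passed in the same limma fit. With the sequencing round as a block, 5 genes were called (0.0369%), and the unadjusted count was 1504. The 4 genes added by the block were LARGE, C9orf64, IL2RA and SLC1A1. In each of them the smaller of the 2 within-round differences was at least 1.19 in size, as the plot of both rounds shows.

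**Figure D1:**
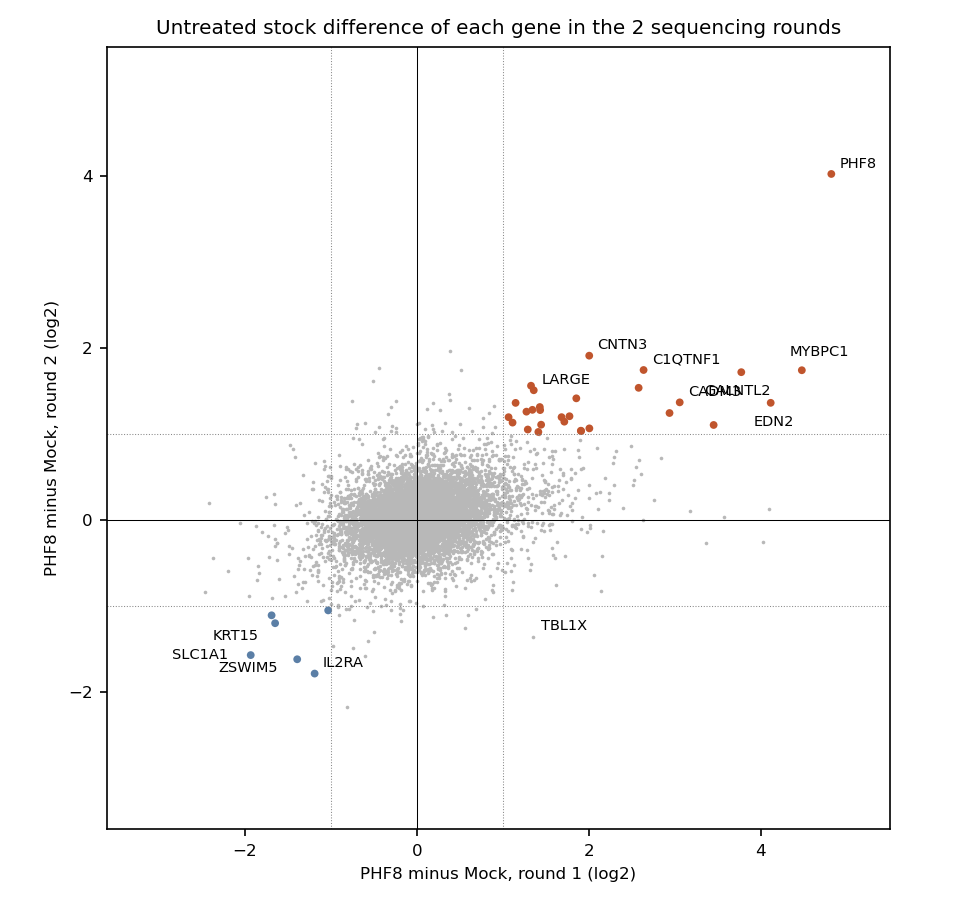
PHF8 minus Mock on the log2 scale in untreated cells, round 1 on the horizontal and round 2 on the vertical axis, for the 13564 genes tested. Coloured points are the 29 genes at least 1 higher (orange) and the 6 at least 1 lower (blue) in both rounds, dotted lines mark 1 and -1, and the cloud is wider along round 1 (SD 0.438) than along round 2 (SD 0.270).

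LARGE, a glycosyltransferase that extends the sugar chains of dystroglycan, was at 6.65 and 6.28 in Mock and at 8.01 and 7.79 in PHF8. Both PHF8 libraries lay above both Mock libraries, which held for 2241 genes (16.5% of those tested), while both lay below for 2197 (16.2%), so that groups without overlap were common at 2 libraries per stock. The difference was 1.43 ± 0.195, with adjusted p = 0.0882 in limma without the block and 0.0296 with it. C9orf64 was at 3.77 and 3.55 in Mock and at 5.20 and 4.82 in PHF8, again without overlap. Its difference was 1.36 ± 0.245, with adjusted p = 0.362 without the block and 0.0296 with it.

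IL2RA encodes the alpha chain of the interleukin-2 receptor, which is best known from T cells. It was at 14.54 and 14.48 in Mock and at 13.35 and 12.69 in PHF8. The Mock libraries lay close together and above both PHF8 libraries. The difference was -1.49 ± 0.278, with adjusted p = 0.362 without the block and 0.0265 with it. The other chains of the receptor did not accompany it, since IL2RB was listed at 0 in all libraries and IL2RG lay between -0.40 and -0.25 in the 4 untreated libraries. IL2, CD3E and CD3D were also listed at 0. Values per gene cannot tell a transcript of the cells' own IL2RA from one carried by a vector, and which of these was measured was not tested. SLC1A1, a transporter of glutamate, was at 6.73 and 5.85 in Mock and at 4.79 and 4.28 in PHF8. Its groups did not overlap, and the difference was -1.75 ± 0.433, with adjusted p = 0.978 without the block and 0.0386 with it.

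Beyond these calls the stocks are described by size and by agreement of the rounds, with no test. In round 1, 335 genes were at least 1 higher and 161 at least 1 lower in the PHF8 stock. In round 2 the counts were 69 and 33. In both rounds, 29 genes were at least 1 higher, or 0.214% of the genes tested, and 6 were at least 1 lower, or 0.0442%. The gene just inside the limit had a smaller difference of 1.02 on the higher side and -1.03 on the lower side, and the gene just outside had 0.99 and -0.98. With no limit on size, 4076 genes (30.1%) were higher in both rounds, 4112 (30.3%) lower in both, and 5376 (39.6%) differed in direction. Across genes, which are not independent replicates, the differences of both rounds had Pearson's r = 0.328 and Spearman's rho = 0.281. Without PHF8 itself r was 0.320.

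The genes with the largest shared excess are given by what they encode, an order chosen after their values were seen, and no enrichment was tested. CNTN3, CADM3 and LINGO2 are adhesion molecules of the nervous system. CNTN3, LINGO2 and MYBPC1 reached the floor in PHF8 libraries alone, and of the lower genes ZSWIM5 did so in Mock libraries alone, so these 4 were tested through the stock where they were high. CNTN3, a contactin anchored in the membrane by a lipid, was at 2.49 and 2.33 in Mock and at 4.50 and 4.24 in PHF8. These differences of 2.01 and 1.91 were the largest shared ones after PHF8. CADM3 was at 7.04 and 4.94 in Mock and at 10.10 and 6.30 in PHF8. Its groups overlapped, because the Mock library of round 1 lay above the PHF8 library of round 2, so its level followed the round as well as the stock. LINGO2, a membrane protein with leucine-rich repeats, was higher by 1.43 and 1.31 without overlap.

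Among secreted proteins, C1QTNF1, a secreted relative of complement C1q and of tumour necrosis factor, was at 4.73 and 4.09 in Mock and at 7.36 and 5.84 in PHF8. METRNL, a secreted protein of the meteorin family, was higher by 1.33 and 1.56. EDN2, the precursor of endothelin-2, was at 3.64 and 1.54 in Mock and at 7.76 and 2.90 in PHF8. The groups of C1QTNF1 and METRNL did not overlap, while those of EDN2 did, with an excess of 4.12 in round 1 and 1.36 in round 2.

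Among enzymes of sugar chains, GALNTL2, of the family that starts O-linked glycans, was at 4.71 and 5.15 in Mock and at 8.48 and 6.87 in PHF8. MAN1A1, a mannosidase that trims N-linked glycans in the Golgi, was at 7.57 and 6.38 in Mock and at 8.91 and 7.66 in PHF8. Both PHF8 libraries lay above both Mock libraries for each gene, though for MAN1A1 the PHF8 library of round 2 exceeded the Mock library of round 1 by less than the Mock libraries differed. LARGE, given above, is a further glycosyltransferase.

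MYBPC1, a myosin-binding protein of slow skeletal muscle, was at 1.81 and 2.02 in Mock and at 6.29 and 3.76 in PHF8, the largest difference after PHF8 in round 1 (4.48) among the genes named here. CA8, a relative of carbonic anhydrase without its activity, was at 4.14 and 4.04 in Mock and at 6.72 and 5.57 in PHF8. FEZ1, an adaptor of transport along microtubules, was at 5.23 and 5.42 in Mock and at 6.50 and 6.67 in PHF8. FEZ1 had almost the same excess in both rounds, 1.28 and 1.26, with adjusted p = 0.209 in limma and 0.0603 with the block. C10orf10 was higher by 1.86 and 1.41. The remaining 14 genes at least 1 higher in both rounds included PTGFR, the receptor of prostaglandin F, KDR, a receptor of vascular endothelial growth factor, ITGB2, an integrin subunit of leukocytes, SULF1, which removes sulfate groups from heparan sulfate, and HSD11B1, which regenerates cortisol. Their mean differences ran from 1.12 for C1orf38 to 2.28 for SULF1.

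**Figure D2:**
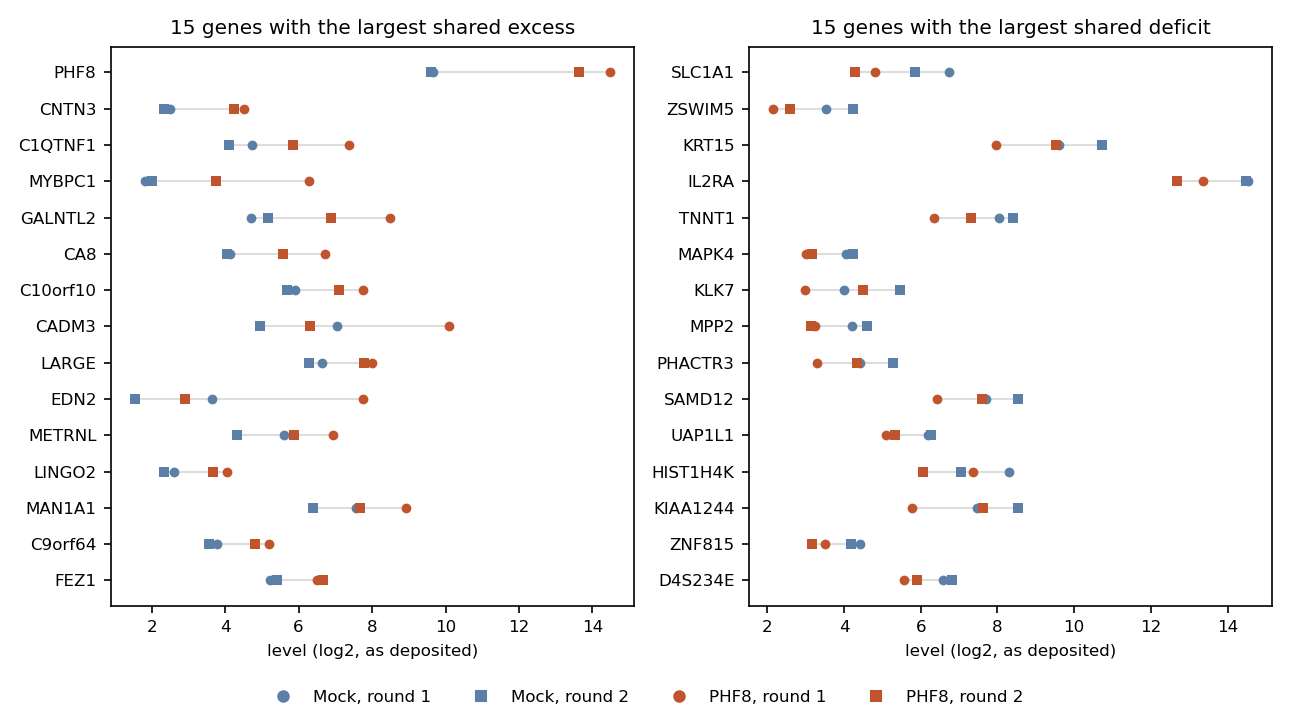
Deposited log2 levels of the 15 genes with the largest shared excess (left) and the 15 with the largest shared deficit (right) in the PHF8 stock, ordered by the smaller of the 2 within-round differences. Circles are round 1 and squares round 2, blue is Mock and orange PHF8, and for LARGE, FEZ1 and IL2RA the colours part widely while for CADM3 and EDN2 they overlap.

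The 6 genes at least 1 lower in both rounds were SLC1A1, ZSWIM5, KRT15, IL2RA, TNNT1 and MAPK4. KRT15, a type I keratin of basal epithelial cells, was at 9.61 and 10.74 in Mock and at 7.96 and 9.53 in PHF8. The groups did not overlap, but the Mock library of round 1 exceeded the PHF8 library of round 2 by little, and the difference was -1.43 ± 0.542 (adjusted p = 0.993 in limma). TNNT1, the troponin T of slow skeletal muscle, was at 8.05 and 8.42 in Mock and at 6.36 and 7.30 in PHF8. MAPK4, an atypical MAP kinase, was lower by 1.03 and 1.06 on the log2 scale, and ZSWIM5 was lower by 1.39 and 1.62. Among the genes just short of the limit were KLK7, a kallikrein protease of cornified epithelium (-0.99 and -0.98), MPP2, a membrane scaffold (-0.98 and -1.47), and HIST1H4K, a gene of histone H4 (-0.92 and -0.99). HIST1H4K and KLK7 overlapped between the stocks, and reads of near-identical histone genes cannot be assigned with certainty.

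Whether these differences also appeared in other libraries was asked in the 12 libraries with TGF-β1. Their values are no part of the untreated differences, though they entered the filter and the spread behind the untreated SEs and p-values. Over the 3 times, limma called 56 genes higher (0.413% of those tested) and 21 lower (0.155%) in the PHF8 stock, 77 in all. With the block it called 602 (4.44%). The count of 77 fell to between 23 and 34 without any 1 of the 6 treated libraries of round 1, to 38 without the 48 h Mock library of round 2 and to 37 without the 72 h one. PHF8 was 4.85 ± 0.192 higher there (n = 6 libraries per stock, adjusted p = 3.99e-07). These 6 are 3 times in each of 2 rounds and not 6 replicates, yet the fit without the block takes them as independent. The block removes only a shift between rounds that both stocks share. The fit with it thus still takes the 3 stock differences of a round as independent. The treated SEs, p-values and calls with and without the block all rest on this.

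Of the 28 genes besides PHF8 that were at least 1 higher untreated in both rounds, 17 were higher in all 6 pairs of treated libraries, where 9.7% of all genes were. The 28 were chosen for shared direction and size in the same stocks and rounds. The share of all genes is thus not a like baseline, here and for the lower genes below. Of these 28, limma called 8 higher over the 3 times, and 16 with the block. Their median difference was 1.46 untreated and 1.15 with TGF-β1, and 27 of the 28 had the larger value untreated, the condition in which they were chosen for size. CNTN3 and LINGO2 are among the 17, and LINGO2 is among the 8. Both passed the floor through PHF8 libraries alone. Of the 6 genes at least 1 lower, 5 were lower in all 6 treated pairs, where 9.07% of all genes were. These 5 include ZSWIM5, which passed the floor through Mock libraries alone. The called genes included LARGE (1.14 ± 0.113, adjusted p = 0.0019), C9orf64 (1.17 ± 0.142, adjusted p = 0.0063), FEZ1 (0.94 ± 0.118, adjusted p = 0.0077) and C1QTNF1 (1.95 ± 0.338, adjusted p = 0.0295). IL2RA was called lower in the same fit (adjusted p = 0.0054), with differences of -1.76 to -1.09 in the 6 treated pairs. SLC1A1 differed by -1.22 ± 0.250, called with the block (adjusted p = 0.0014) and not without it (0.0646).

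Other genes of the group had little or no counterpart with TGF-β1. MYBPC1 differed by 0.28 ± 0.413 over the 3 times (adjusted p = 0.855), with 4 of 6 pairs higher. KDR differed by 0.28 ± 0.317 and was higher in 3 of 6 pairs. KRT15 differed by 0.25 ± 0.313 and was higher in 5 of 6 pairs, the other direction from the untreated libraries. Its level in Mock went from 9.61 and 10.74 untreated to between 5.43 and 6.26 with TGF-β1. The test of the untreated difference against the mean treated difference called 0 genes in limma (0%), with 163 at an unadjusted p under 0.05, and 0 and 444 with the block. No gene, KRT15 and MYBPC1 included, was thus shown to differ in its stock difference between untreated and treated cells.

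**Figure D3:**
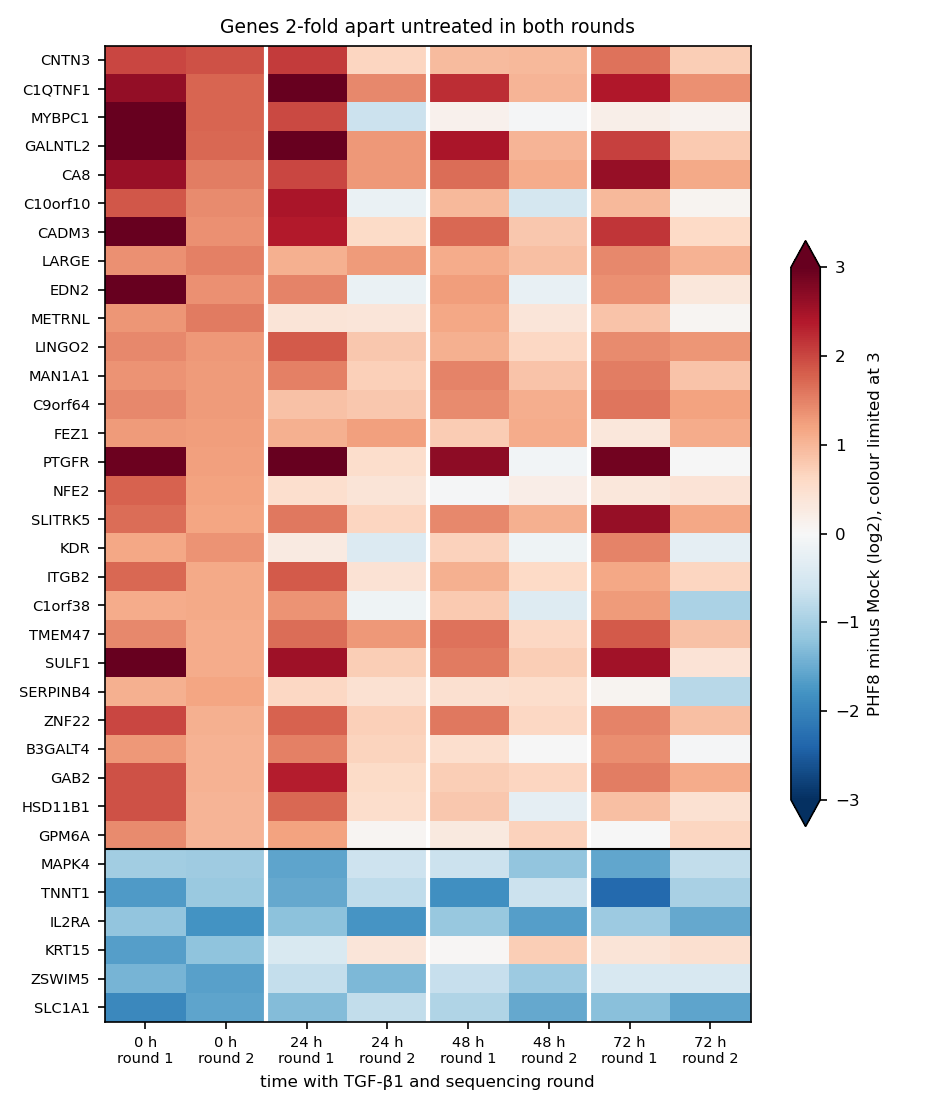
PHF8 minus Mock on the log2 scale for the 34 genes other than PHF8 that were at least 1 apart in both untreated rounds (rows, higher genes above the black line), at 0, 24, 48 and 72 h of TGF-β1 in each round (columns). LARGE, C9orf64, IL2RA and SLC1A1 keep 1 colour throughout, while MYBPC1, EDN2, KDR and KRT15 fade or change colour in treated libraries.

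The reverse reading started from the treated libraries. The untreated libraries entered the filter and the spread behind the treated calls, so the share of all genes is not a like baseline. Of the 55 genes other than PHF8 called higher over the 3 times, 52 were higher in both untreated rounds, against 30.1% of all genes, and 1 was lower in both. Their median untreated differences were 0.58 in round 1 and 0.38 in round 2. Of the 21 genes called lower, 20 were lower in both untreated rounds, against 30.3%, with medians of -0.90 and -0.57. Only 8 of the 55 and 1 of the 21 reached the limit of 1 in both untreated rounds. With TGF-β1 their median differences, 0.77 and -0.91, were below 1 in size too. Missing that limit therefore does not show a smaller difference without TGF-β1. Most genes called with TGF-β1 had the same direction without it.

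The size of the stock difference depended on the round. The SD of the differences over all genes was 0.438 untreated in round 1 and between 0.391 and 0.465 in the 3 treated pairs of that round, against 0.270 untreated and 0.261 to 0.270 treated in round 2. Across genes, the untreated difference of round 1 had r = 0.713 with the mean treated difference of round 1 and r = 0.205 with that of round 2. The untreated difference of round 2 had r = 0.293 with the treated difference of round 1 and 0.297 with that of round 2. These pairs of values share no library, but those of 1 round share the sequencing round. PHF8 was 0.84 higher in the PHF8 library of round 1 than in that of round 2, and whether that level has a part in the larger differences was not tested.

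Genes that serve as readouts of EMT were tested in 14 of 16 cases, and none was called. Of these 14, 9 were higher in the PHF8 stock in both rounds and 3, CDH1, SNAI2 and OVOL2, were lower, with a median difference of 0.36, where the median of all genes was -0.0017. With TGF-β1 the median of the 14 genes was -0.018. The list mixes genes that EMT lowers, such as CDH1 and ESRP1, with genes that it raises, and ESRP1 is among the 9. Its median thus gives no direction of EMT. CDH1, which encodes E-cadherin of epithelial junctions, was at 11.45 and 11.57 in Mock and at 10.22 and 11.38 in PHF8. Only the PHF8 library of round 1 was clearly low, and the difference was -0.71 ± 0.870 (adjusted p = 0.993 in limma). CDH2, which encodes N-cadherin of mesenchymal cells, was at 9.11 and 8.59 in Mock and at 10.06 and 9.29 in PHF8, a difference of 0.82 ± 0.322 (adjusted p = 0.993, and 0.101 with the block). With TGF-β1 it differed by -0.0094 and was higher in 2 of 6 pairs. The PHF8 libraries lay above the Mock libraries for CDH2, by a margin smaller than the difference between rounds.

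The transcription factors that repress CDH1 did not all go one way. SNAI1 was at 4.14 and 4.76 in Mock and at 5.62 and 5.22 in PHF8. ZEB1 was at 7.61 and 6.47 in Mock and at 8.73 and 7.07 in PHF8. ZEB2 was at 7.49 and 6.14 in Mock and at 9.19 and 6.66 in PHF8. For SNAI1 the stocks did not overlap, while for ZEB1 and ZEB2 the Mock library of round 1 lay above the PHF8 library of round 2. The differences were 0.97 ± 0.694, 0.86 ± 0.586 and 1.11 ± 0.922, each with adjusted p = 0.993 in limma. Without the PHF8 library of round 1, ZEB2 came to -0.16. Fits with a library left out had no term for the round, here and below. The gap between rounds thus entered their values. With TGF-β1, SNAI1 differed by -0.17 with 1 of 6 pairs higher, ZEB1 by 0.41 with 5 and ZEB2 by 0.92 with 6. SNAI2 was slightly lower in both rounds (-0.19 and -0.12), a difference that turned to 0.06 without the Mock library of round 1 and to 0.03 without the PHF8 library of round 2, and TWIST1 slightly higher (0.47 and 0.18).

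VIM, the intermediate filament vimentin, differed by 0.38 and 0.50 untreated and by -0.04 with TGF-β1, where 2 of 6 pairs were higher, and FN1, the matrix protein fibronectin, by 0.39 and 0.39. For FN1 the rounds differed far more than the stocks, with 14.15 and 12.06 in Mock and 14.54 and 12.45 in PHF8. Without either the PHF8 library of round 1 or the Mock library of round 2, the value turned to -0.65 and -0.66. That turn holds the gap between rounds, while the differences within the rounds were alike. ESRP1 is a splicing factor of epithelial cells that EMT usually lowers. It was higher in the PHF8 stock, with 6.27 and 7.00 in Mock and 7.30 and 7.82 in PHF8, and no overlap. Its difference was 0.92 ± 0.353 (adjusted p = 0.993, and 0.224 with the block), and with TGF-β1 it was 1.01 ± 0.204, higher in 6 of 6 pairs (adjusted p = 0.062, and 0.0023 with the block). Both ESRP1, which marks epithelial cells, and CDH2, which marks mesenchymal ones, were thus higher in the PHF8 libraries.

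**Figure D4:**
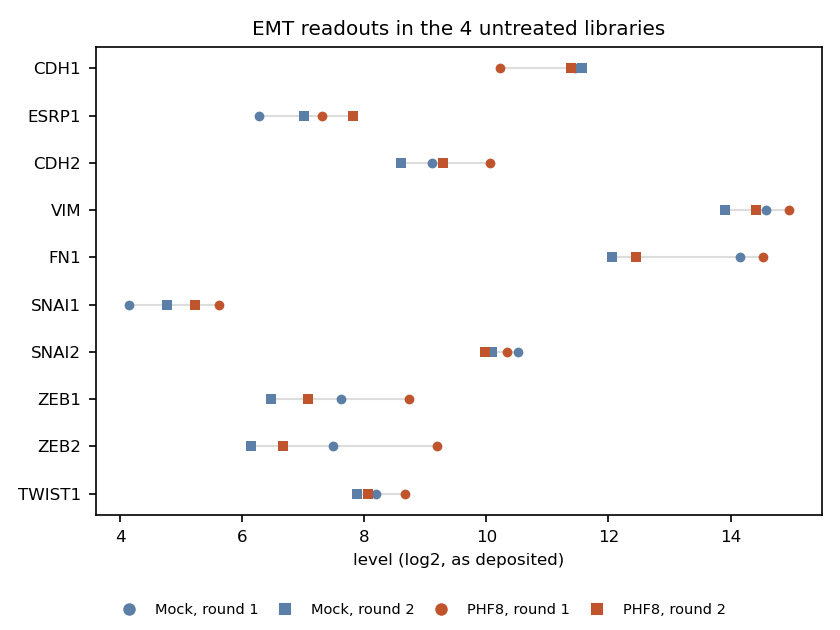
Deposited log2 levels of 10 EMT readouts in the 4 untreated libraries, with Mock in blue, PHF8 in orange, round 1 as circles and round 2 as squares. CDH2, SNAI1 and ESRP1 have both PHF8 points to the right of both Mock points, CDH1 is low in the PHF8 library of round 1 only, and FN1, ZEB1 and ZEB2 spread more by round than by stock.

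Epithelial junction genes were tested in 28 of 30 cases, of which 6 were higher and 12 lower in both rounds (median -0.15). The median of these genes was -0.28 in round 1 and 0.02 in round 2. PKP1, among the 28, reached the floor in PHF8 libraries alone. EPCAM, an epithelial adhesion molecule, differed by -0.41 in each round, CLDN7, a claudin of tight junctions, by -0.46 and -0.31, and DSP, the plaque protein of desmosomes, by -0.30 and -0.32. Without the PHF8 library of round 1, EPCAM turned to 0.27 and CLDN7 to 0.05, and EPCAM also came to 0.27 without the Mock library of round 2. In Mock, EPCAM was at 8.87 in round 1 and 10.22 in round 2, a gap that enters its values with a library left out. DSP was at 13.92 and 14.20 in Mock and at 13.62 and 13.88 in PHF8, so the groups lay only 0.043 apart. Of the 15 tested genes of a list of keratins and basal markers, 7 were lower and 2 higher in both rounds (median -0.19). The higher ones were KRT8 (0.22 and 0.25) and KRT80 (1.02 and 0.68), so not every keratin of the list went the same way. KRT5, the type II keratin of basal cells, differed by -0.38 and -0.18, and TP63, the transcription factor of basal identity, by -0.93 and -0.17, which turned to 0.14 without the PHF8 library of round 1. In round 1 the median of the keratin list was -0.38, and in round 2 it was 0.03.

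Of 14 tested mesenchymal and contractile genes, 5 were higher in both rounds and 1, CALD1, was lower (median 0.19). ACTA2, the actin of smooth muscle, was at 7.42 and 7.74 in Mock and at 8.34 and 8.81 in PHF8. Its difference of 0.99 ± 0.263 (adjusted p = 0.978, and 0.097 with the block) was about equal in both rounds, and it was higher in 6 of 6 treated pairs. AXL, a receptor tyrosine kinase of mesenchymal cells, was higher by 0.60 and 0.53. S100A4, a calcium-binding protein of motile cells, and LOX, which cross-links collagen, had most of their excess in round 1, with 2.14 and 0.32 for S100A4 and 1.56 and 0.14 for LOX.

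Matrix genes were higher in both rounds in 11 of 25 tested cases and lower in 4, COL6A1, COL7A1, COL17A1 and THBS1 (median 0.11). The median of the list was -0.06 in round 1 and 0.24 in round 2. COL1A2, among the 11 at 0.10 and 0.24, reached the floor in PHF8 libraries alone. DCN, the proteoglycan decorin, was at 9.72 and 7.74 in Mock and at 12.30 and 8.43 in PHF8. COL6A3, a chain of type VI collagen, was at 6.79 and 5.17 in Mock and at 8.37 and 5.88 in PHF8. FBN1, which encodes fibrillin of microfibrils, was higher by 1.29 and 0.67. For DCN, COL6A3 and FBN1 the Mock library of round 1 lay above the PHF8 library of round 2, and without the PHF8 library of round 1 DCN came to -0.30 and COL6A3 to -0.10. The summed linear level of the 10 fibroblast markers was 2130 and 862 in Mock and 6230 and 1110 in PHF8. DCN made up most of the sum in the PHF8 library of round 1, while in the other 3 libraries FAP, a protease of the fibroblast surface, lay above DCN. FAP was at 10.17 and 9.07 in Mock and at 10.04 and 9.28 in PHF8, and COL1A1, a chain of type I collagen, lay between 6.60 and 6.94. COL3A1 and LUM were below 0 on the log2 scale in the 4 libraries, PDGFRA lay between 1.49 and 1.55, and none of these 3 passed the floor. In bulk RNA, more cells of a kind and more RNA per cell cannot be told apart.

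Components and targets of the TGF-β pathway were higher in both rounds in 16 of 27 tested cases and lower in 4, TGFBR1, TGFBR2, PMEPA1 and SPHK1 (median 0.13), in cells that had received no TGF-β1. The inhibitory SMAD6 was at 3.83 and 3.81 in Mock and at 5.63 and 4.30 in PHF8. LTBP2, a latent TGF-β binding protein, was higher by 0.51 and 0.46, JUNB, a subunit of AP-1, by 0.63 and 0.40, and SKIL, a corepressor of SMADs, by 0.62 and 0.35. The stocks did not overlap for SMAD6, LTBP2 and JUNB, and over the list they lay apart in 7 of 27 genes with PHF8 higher and in 1 with PHF8 lower, against 16.5% and 16.2% of all genes. With TGF-β1 the median of the 27 genes was 0.02.

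Because the TGF-β1 libraries give the response of the Mock stock itself, the untreated stock difference could be set beside that response in libraries it does not share. Genes raised by at least 1 after 72 h in the Mock stock in round 2 (845 genes) had a median untreated stock difference of 0.13 in round 1, and those lowered by at least 1 (558) had -0.08, where all genes had -0.014. With the rounds exchanged, the medians were 0.14 for 598 raised genes and -0.04 for 480 lowered genes, where all genes had 0.0074. Across genes r was 0.103 and 0.149. In both rounds, genes that TGF-β1 raised in Mock thus had the higher and genes that it lowered the lower median between the untreated stocks, each by a small amount.

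Of the 24 genes of MYC and ribosome biogenesis, all of which were tested, 22 were lower and 0 higher in both rounds, against 30.3% and 30.1% of all genes. The median difference was -0.20, with -0.31 in round 1 and -0.14 in round 2. NOP56, a core protein of small nucleolar RNA complexes, differed by -0.51 and -0.37, UTP20, a factor of small ribosomal subunit assembly, by -0.69 and -0.33, and POLR1B, a subunit of RNA polymerase I, by -0.36 and -0.28. FBL, the nucleolar methyltransferase fibrillarin, was at 10.95 and 11.19 in Mock and at 10.66 and 10.77 in PHF8, without overlap. The genes that did not share a direction were BOP1 (-0.15 and 0.13) and TAF1D (-0.0030 and 0.08). With TGF-β1 the median of the list was below 0 in the 3 pairs of round 1 (-0.28 to -0.23) and above 0 in the 3 pairs of round 2 (0.0095 to 0.11). None of the 24 was called, and the lowest adjusted p was 0.993 without and 0.337 with the block.

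Replication-dependent histone genes, whose transcripts are made in S phase, were lower in both rounds in 18 of 28 tested cases and higher in 0 (median -0.38). Nearly all of the deficit lay in round 1, where the median was -0.74 against -0.05 in round 2. HIST1H3H was at 12.00 and 11.08 in Mock and at 11.06 and 10.85 in PHF8, and HIST1H2AE at 11.90 and 11.33 in Mock and at 11.10 and 11.09 in PHF8. The Mock library of round 1 was the high one in both cases. Genes of DNA replication and mitosis showed the same imbalance, with 16 of 38 lower in both rounds, 3 higher (CCND3 and the cyclin-dependent kinase inhibitors CDKN1A and CDKN1B), and medians of -0.46 and 0.01. CCND1, which encodes cyclin D1, was lower by about the same amount in both rounds, with 12.59 and 12.20 in Mock and 12.11 and 11.83 in PHF8, and in 6 of 6 treated pairs. Its difference of -0.42 ± 0.200 had adjusted p = 0.993, and 0.097 with the block. MCM3 and MCM6, subunits of the replicative helicase, differed by -0.66 and -0.36 and by -0.30 and -0.32.

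**Figure D5:**
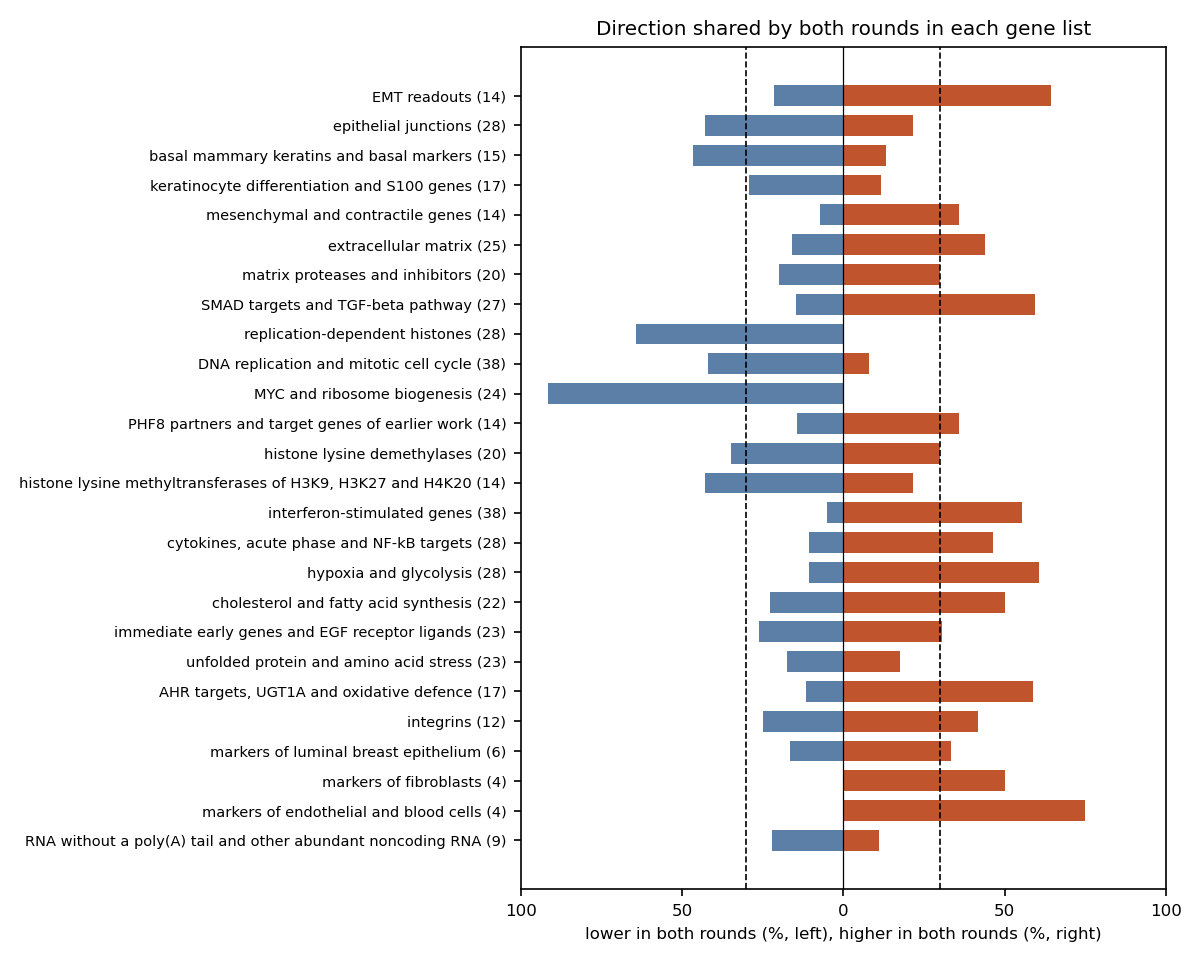
Share of the tested genes of each list (number in brackets) that were lower (blue, left) or higher (orange, right) in the PHF8 stock in both untreated rounds, in percent, with dashed lines at the share of all 13564 genes. MYC and ribosome biogenesis and histone genes extend furthest to the left with nothing to the right, and markers of endothelial and blood cells (3 of 4), EMT readouts, hypoxia, SMAD, aryl hydrocarbon receptor and interferon genes extend furthest to the right.

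Interferon-stimulated genes were higher in both rounds in 21 of 38 tested cases and lower in 2, OAS1 and OAS3 (median 0.19, with 0.18 in round 1 and 0.20 in round 2). In the 6 treated pairs the median of the list lay between 0.12 and 0.30. IFI44 was at 5.97 and 5.76 in Mock and at 6.51 and 6.70 in PHF8. IFI35 was at 6.52 and 6.54 in Mock and at 7.14 and 7.06 in PHF8. IFIT1, which binds foreign RNA, was at 5.33 and 5.43 in Mock and at 5.97 and 5.95 in PHF8. For IFI44, IFI35 and IFIT1 the stocks did not overlap and all 6 treated pairs were higher. Over the list, the stocks lay apart in 15 of 38 genes with PHF8 higher and in 0 with PHF8 lower, against 16.5% and 16.2% of all genes. Their differences were 0.74 ± 0.198, 0.57 ± 0.145 and 0.58 ± 0.253 (adjusted p = 0.978, 0.978 and 0.993 in limma). IFITM1, a membrane protein that hinders viral entry, was higher by 0.82 and 0.50, but its level also differed between rounds (5.53 and 7.06 in Mock), and it came to -0.10 without the Mock library of round 1.

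The promoters of these 4 genes are shown because interferon response genes share a DNA element that such a group can be read against. The element was searched as GAAANNGAAA on both strands, with matches in capitals, in the 300 bases from 250 before to 50 after the start of each gene (RefSeq, GRCh38.p14). IFI44 lies at chr1:78649539-78649838, IFI35 at chr17:43006534-43006833, IFIT1 at chr10:89392373-89392672 and IFITM1 at chr11:313790-314089, all on the plus strand.
IFI44: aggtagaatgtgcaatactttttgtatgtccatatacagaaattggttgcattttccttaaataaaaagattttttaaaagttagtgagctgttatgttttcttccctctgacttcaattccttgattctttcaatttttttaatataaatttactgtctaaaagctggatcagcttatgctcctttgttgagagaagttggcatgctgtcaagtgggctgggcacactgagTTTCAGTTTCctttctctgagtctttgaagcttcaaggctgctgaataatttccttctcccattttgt
IFI35: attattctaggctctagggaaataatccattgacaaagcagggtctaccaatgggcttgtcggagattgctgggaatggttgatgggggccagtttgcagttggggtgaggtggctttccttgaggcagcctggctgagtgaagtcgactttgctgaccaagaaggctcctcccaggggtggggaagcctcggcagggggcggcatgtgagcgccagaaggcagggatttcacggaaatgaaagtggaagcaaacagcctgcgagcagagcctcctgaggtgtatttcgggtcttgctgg
IFIT1: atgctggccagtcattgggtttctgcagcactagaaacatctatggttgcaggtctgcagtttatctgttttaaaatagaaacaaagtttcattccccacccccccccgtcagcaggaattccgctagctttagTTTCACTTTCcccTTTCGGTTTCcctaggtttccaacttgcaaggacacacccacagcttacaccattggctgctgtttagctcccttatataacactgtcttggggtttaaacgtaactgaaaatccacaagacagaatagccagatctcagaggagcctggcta
IFITM1: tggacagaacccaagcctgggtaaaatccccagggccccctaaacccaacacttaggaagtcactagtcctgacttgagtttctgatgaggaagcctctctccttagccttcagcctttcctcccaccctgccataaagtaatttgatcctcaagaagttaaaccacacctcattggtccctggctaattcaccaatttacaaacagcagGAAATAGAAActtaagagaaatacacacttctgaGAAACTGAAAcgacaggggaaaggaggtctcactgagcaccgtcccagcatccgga
IFIT1 and IFITM1 hold 2 matches each, which do not overlap, IFI44 holds 1 and IFI35 holds 0. Of the 38 interferon genes tested, 30 were matched in the promoter table, and 20 of these (66.7%) held the element in an entry, where 4.38% of the 27305 genes of the table did. Of the 19 matched genes that were higher in both rounds, 13 held it, a share close to that of the whole list. The list was chosen as interferon genes, so its share against all genes says nothing of the stocks. A match describes the letters of this window and not a site in use.

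Cytokines, acute phase genes and targets of NF-kB were higher in both rounds in 13 of 28 tested cases and lower in 3 (median 0.28), where the lower ones were IL2RA, TNFAIP2 and NFKB1. CXCL5, among the 28, reached the floor in PHF8 libraries alone. SOD2, the mitochondrial superoxide dismutase, was at 12.00 and 12.92 in Mock and at 13.85 and 13.46 in PHF8. RELB, a subunit of NF-kB, was at 7.54 and 7.68 in Mock and at 8.25 and 8.17 in PHF8. SAA2, a serum amyloid of the acute phase, was higher by 1.10 and 0.88, and SAA1 by 0.51 and 0.58. The 2 serum amyloid genes are near copies, so reads may be split between them. Over the libraries with TGF-β1, SAA2 was called 1.17 higher in the PHF8 stock (adjusted p = 0.029, higher in 6 of 6 pairs).

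Targets of the aryl hydrocarbon receptor and genes of oxidative defence were tested in 17 of 26 cases, of which 10 were higher in both rounds and 2, ALDH1A3 and SRXN1, were lower. The median was 0.52, with 0.79 in round 1 and 0.07 in round 2. CYP1B1, a cytochrome P450 of this pathway, was at 8.98 and 9.32 in Mock and at 11.29 and 10.12 in PHF8. AHRR, the repressor of the receptor, was at 2.91 and 3.01 in Mock and at 4.79 and 3.74 in PHF8. ALDH3A1, an aldehyde dehydrogenase, was at 9.05 and 10.10 in Mock and at 10.84 and 10.69 in PHF8. The stocks did not overlap for these 3 genes, and over the list they lay apart in 7 of 17 genes with PHF8 higher and in 1 with PHF8 lower, against 16.5% and 16.2% of all genes. AHRR reached the floor of 3.33 in PHF8 libraries alone, so it entered the list's counts through the stock where it was high, and it was higher in 4 of 6 treated pairs. CYP1B1 was called over the treated libraries at 2.16 (adjusted p = 0.044, higher in 6 of 6 pairs). VNN1, a pantetheinase, was higher by 0.61 and 0.65. The UGT1A genes of the list did not pass the floor.

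Hypoxia and glycolysis genes were higher in both rounds in 17 of 28 tested cases and lower in 3, HK2, PGK1 and P4HA2, with a small median of 0.07. SLC2A3, a glucose transporter, was at 5.40 and 5.65 in Mock and at 6.27 and 6.44 in PHF8, a difference of 0.83 ± 0.330 (adjusted p = 0.993, and 0.357 with the block) seen in 6 of 6 treated pairs. EGLN3, an oxygen-sensing hydroxylase, was higher by 0.52 and 0.40, and NDRG1 by 0.80 and 0.18. Integrins were higher in both rounds in 5 of 12 cases (ITGA5, ITGAV, ITGB3, ITGB4 and ITGB5) and lower in 3 (ITGA2, ITGA6 and ITGB6). Cholesterol and fatty acid genes were higher in 11 of 22 cases and lower in 5, among them MVK, PMVK, ACACA and ACLY, with a median of 0.03. EREG, an EGF receptor ligand, was higher by 0.50 and 0.48 and in 6 of 6 treated pairs. Among 23 tested immediate early genes and EGF receptor ligands, 7 were higher and 6 lower in both rounds. Genes of the unfolded protein and amino acid stress response came to 4 higher (DDIT3, DDIT4, HSP90B1 and DNAJB9) and 4 lower (TRIB3, ASNS, DNAJB1 and HSPH1) of 23. Keratinocyte differentiation genes came to 2 higher (LCN2 and SERPINB4) and 5 lower (SPRR1B, S100A9, TGM1, KLK7 and KLK10) of 17, where the value of SERPINB4 is uncertain because SERPINB3 is a near copy. Without the PHF8 library of round 1, TRIB3 turned to 0.10, ASNS to 0.34, SPRR1B to 0.73 and TGM1 to 0.33. Without the Mock library of round 2, TRIB3 turned to 0.12, ASNS to 0.44 and TGM1 to 0.45, and without the Mock library of round 1 DNAJB1 turned to 0.15. Matrix proteases and their inhibitors came to 6 higher and 4 lower (MMP28, PLAUR, PLAT and TIMP3) of 20. MMP3, among the 20, reached the floor in PHF8 libraries alone.

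With TGF-β1, the median stock difference was -0.05 for epithelial junctions, -0.16 for keratins and basal markers, 0.08 for mesenchymal genes and -0.0054 for matrix genes. It was -0.19 for histones and -0.12 for replication and mitosis, where all genes had -0.0078. It was 0.20 for cytokines and NF-kB targets, 0.14 for targets of the aryl hydrocarbon receptor and 0.27 for hypoxia and glycolysis. By round, junctions had medians of -0.26 to -0.23 in round 1 and 0.07 to 0.10 in round 2. The keratin list had -0.46 to -0.28 and 0.06 to 0.10, and histones -0.80 to -0.17 and -0.03 to 0.12. Replication and mitosis had -0.82 to -0.0079 and 0.04 to 0.13, and aryl hydrocarbon receptor targets 0.27 to 0.56 and -0.07 to 0.0078. Mesenchymal and matrix genes had both signs within each round. Hypoxia genes stayed above 0, as did cytokines except at 72 h in round 1.

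Among the 20 other histone demethylases, 6 were higher and 7 lower in both rounds (median -0.0061). JHDM1D, the closest relative of PHF8 beside PHF2, was at 7.26 and 7.84 in Mock and at 8.04 and 8.25 in PHF8, a difference of 0.60 ± 0.344 (adjusted p = 0.993, and 0.209 with the block). PHF2 was at 9.58 and 9.69 in Mock and at 9.31 and 9.74 in PHF8, so it overlapped between the stocks. KDM1B was higher by 0.39 and 0.50, and KDM5A by 0.17 and 0.20. Of the 14 methyltransferases of the marks that PHF8 and its relatives remove, 6 were lower in both rounds and 3, EZH1, SETD8 and SUV420H1, were higher. SUZ12, a subunit of the Polycomb complex PRC2, was at 10.78 and 10.54 in Mock and at 10.44 and 10.11 in PHF8, without overlap, and SETDB1, which methylates H3K9, was lower by 0.10 and 0.19 on the log2 scale. Of 14 partners and target genes of PHF8 from earlier work, 5 were higher in both rounds and 2, E2F1 and UBTF, were lower (median 0.05). The higher ones were SNAI1, ZEB1, IL6 (1.68 and 0.07), RAC1 (0.07 and 0.07) and RHOA (0.07 and 0.02). RAC1 turned to -0.23 without the Mock library of round 1 and to -0.24 without the PHF8 library of round 2.

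Markers of other cell types were read beside these groups. The 11 markers of endothelial and blood cells summed to 738 and 805 on the linear scale in Mock and to 1660 and 1280 in PHF8, and 4 of them passed the floor. CD68, a lysosomal protein, was at 8.44 and 8.32 in Mock and at 9.58 and 9.14 in PHF8, and CD14, a receptor of bacterial lipopolysaccharide, at 8.41 and 8.70 in Mock and at 9.64 and 9.18 in PHF8. KDR is the third marker that was higher in both rounds. PECAM1, the other one past the floor, differed in direction, with 3.97 and 4.55 in Mock and 4.53 and 4.36 in PHF8. With TGF-β1, CD14 was higher in 2 of 6 pairs, KDR in 3 and CD68 in 5. The defining markers CD3E and HBB were listed at 0 in all libraries, and PTPRC and CDH5 were below 0 on the log2 scale. The 13 luminal markers summed to 2260 and 2450 in Mock and to 2750 and 2320 in PHF8, with PGR, TFF1 and TFF3 at 0 and 6 past the floor. Of these 6, GATA3 and MUC1 were higher and FOXA1 was lower in both rounds, and MUC1, a mucin of luminal cells, differed by 1.52 and 0.42. The 6 basal markers summed to 93500 and 89500 in Mock and to 68300 and 85600 in PHF8, so the PHF8 library of round 1 was the low one. Their part in the differences above was not tested. Among RNAs without a poly(A) tail and other abundant noncoding RNAs, 1 of 9 was higher in both rounds, TERC, the RNA of telomerase (0.75 and 0.57), and 2 were lower, RNU11 and SNHG1.

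The genes most opposed between the rounds show how far a difference of 1 pair can go without the other. TBL1X, a subunit of a corepressor complex, was at 3.08 in Mock and 4.43 in PHF8 in round 1, and at 4.93 in Mock and 3.56 in PHF8 in round 2. It was the 1 gene of 13564 with opposed differences of at least 1 in each round. SERPINB2, a serpin of keratinocytes, differed by -1.48 and 0.87, COL28A1, a collagen, by 2.14 and -0.83, and CCDC102B by 0.89 and -0.85.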

How the data were processed

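RNA sequencing of 16 MCF10A libraries was used, 2 for each of 8 groups, as given in the labels. Per the submitters' processing notes, TopHat2 2.0.13 aligned the paired-end reads (50 bases) to hg19, featureCounts of Subread 1.4.6 counted them and DESeq2 was applied. The library kit was stranded, per the labels' protocols, and the strand setting of the counting is not given in the sources used here. The authors deposited log2 values per gene and library. Their transformation is not given in the sources used here. Values have the pattern of a regularized log, which compresses the fold differences of genes with few reads, to a degree not known here. Read counts were not analysed here. The depth is therefore unknown, and no counting interval is given. From 23368 entries, 28 whose symbol had become a date were dropped, and a further 4064 held 0 throughout. A second sheet has 4 value columns whose names fit none of the samples, and they were not used.

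Genes at 3.33 (10.06 on the linear scale) or more in at least 2 libraries were tested on the deposited log2 values with limma 3.58.1 (R 4.3.3), with 1 mean per group over 16 libraries, a mean-variance trend and Benjamini-Hochberg adjustment over all 13564 genes. The scripts were tested on simulated data. No pseudocount was added. Calls were made at adjusted p under 0.05. Because the fit shares its spread over all groups, an SE at n = 2 assumes that untreated and treated libraries vary alike.

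Per the labels, the replicate number is the sequencing round. Deviations of the 2 untreated groups from their means correlated at 0.489 by round (0.206 to 0.749 over 28 pairs of groups), so the round pairs the libraries, and the fit with it as a block is given where it changed a call or a count.

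The genes named are PHF8, every gene called with or without the block, the 15 higher and the 15 lower genes with the largest smaller-of-both within-round difference, 9 EMT readouts, up to 4 genes of each list by the same measure in one direction, and the 4 most opposed genes. Other names (list members that went against their list or stood behind small counts, and genes 2-fold apart beyond these 30) were picked with their values known. Values of a few genes that these rules name are not reported here. The 26 lists held 572 symbols, of which 568 were found and 501 tested. The comparison, the genes and the lists were chosen with earlier results of these data known. Alternatives were the block, no trend, no filter, a floor of 6, centring on library medians, the untreated libraries alone, other limits on size and each library left out. Promoters were read from RefSeq tables of GRCh38.p14, whose build differs from that of the alignment, and coordinates are given for those promoters alone.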

Additional observations from a re-analysis of the deposited data

Results flagged for a closer look

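For ITGB4 and KDM5B, both untreated pairs were higher in the PHF8 stock while all 6 treated pairs were lower. ITGB4, the integrin subunit of hemidesmosomes, differed by 0.29 untreated and by -0.47 over the 3 TGF-β1 times, a gap of 0.77 ± 0.628 (SE), and KDM5B, a demethylase of H3K4, by 0.12 and -0.05, a gap of 0.17 ± 0.294. The untreated difference of KDM5B turned to -0.08 without the Mock library of round 1 and to -0.03 without the PHF8 library of round 2. Neither gap was called by limma (adjusted p = 0.9999 in each, and 0.9997 with the block).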

How the results depend on the processing

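The PHF8 difference of 4.42 was called in every alternative tried but one. With the 4 untreated libraries alone, which leaves 2 residual degrees of freedom, the adjusted p was 0.0608, and with the round as a block among those 4 it was 0.000136. Leaving out a library gave 4.00 to 4.84, with an adjusted p of at most 0.0141. The count of 1 gene called became 5 with the replicate block and 0 with the 4 untreated libraries alone, and stayed at 1 when each of the 16 libraries was left out in turn. The 12 settings that leave out a treated library were added after the data were seen. Of genes apart in both rounds, 35 at a limit of 1 became 325 at 0.5 and 7 at 1.5. The treated count of 77 became 602 with the block and 23 to 77 when a treated library was left out. The test of untreated against treated differences called 0 genes in each setting. Of 130 named genes with alternatives, 24 changed sign in an alternative, all by leaving out a library, and 0 of the 30 with the largest shared differences did. The fits with a library left out had no term for the round, so the gap between rounds entered their values. Centring shifted a library by at most 0.0242 and changed 0 signs. Depth is unknown, so no limit from counting is given.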

Other observations

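IL2RA stood out by its level as well as by its difference. Its lowest and highest values over untreated and treated cultures were 14.46 and 14.74 in Mock and 12.69 and 13.64 in PHF8. IL2RB, CD3E and CD3D were listed at 0 in every library, and in the untreated libraries CD4 and FOXP3 lay below 0 on the log2 scale. The vector of these stocks is not given in the sources used here.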
